A study of Mus musculus with 6 samples.

Results

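The genes described here are 10 members of the BCL2 family, which sets whether a cell's mitochondria are opened during apoptosis. They were chosen by name, with earlier results of these data known. They are the survival genes Mcl1, Bcl2l1 and Bcl2, the pore-forming Bax and Bak1, and the BH3-only genes Bcl2l11, Bid, Bbc3, Pmaip1 and Bmf. All 10 were found among the 48005 gene entries of the count table, and all 10 had enough counts to be tested. The other members have an entry of their own. Bax shares its entry with Dhdh and Gm45808, a readthrough gene, whose exons overlap, so its bins were also counted apart.

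Proteins of this family bind each other on the outer mitochondrial membrane. Survival proteins hold BAX and BAK1 in check, BH3-only proteins bind the survival proteins through a short helix, the BH3 region, and some also activate BAX and BAK1 directly. When BAX or BAK1 form pores, cytochrome c leaves the mitochondria and caspases are activated. In macrophages and microglia, survival also depends on signals from the CSF1 receptor, and MCL1, a protein that is degraded quickly, is needed for the survival of neutrophils.

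Polyadenylated RNA was sequenced from microglia, macrophages that reside in the brain, grown in culture from CD1 mice. A control group (libraries A, B and C) was set against microglia that had received extracellular vesicles (EVs, membrane-bound particles released by cells). The EVs came by serial centrifugation from monolayer cultures of primary neural stem cells from the subventricular zone of CD1 mice, and this group also has libraries A, B and C. The labels give neither the content of the control treatment, the dose and duration, the age of the animals, nor whether libraries of a group came from separate cultures, so the spread that the p-values rest on may be technical.

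The libraries held 109744701 to 162544804 counts, summed over exon bins. Values are CPM, that is, counts per library brought to one common total, after TMM scaling, and groups were compared with edgeR's quasi-likelihood test, with p-values adjusted by Benjamini-Hochberg over all 16605 entries tested and a threshold of 0.05. Over all entries, 33.0% rose and 33.5% fell, and the groups of libraries did not overlap in 71.3%. Scaling by library totals alone shifted the median log2 change of all entries from -0.02 to -0.38, and the calls from 5482 higher and 5555 lower to 3910 higher and 7585 lower. Upper-quartile scaling gave a median of -0.14, and testing without a filter on low counts gave 0.17. The log2 ratio of Y-linked to Xist counts ran from -3.86 to -1.35 in the control libraries and from -5.51 to -4.86 in the EV-treated ones, so this ratio and the treatment move together and cannot be fully told apart.

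Of the 10 microglia and macrophage markers all 10 were tested, and their summed level was 6029 to 7535 CPM in the control and 3980 to 4273 CPM in EV-treated libraries. Csf1r and Itgam were high in every library, while Tmem119 lay between 2.39 and 9.21 CPM and P2ry12 between 0.0565 and 5.06 CPM. Markers of other cell types moved with the groups in part. The 6 astrocyte markers summed to 10.9 to 15.5 CPM in the control and 88.3 to 123 CPM in EV-treated libraries, with Gfap and Aqp4 at 0 to 0.143 CPM. Nearly all of the control sum came from Aldh1l1 (joined with Gm45901), at 10.6 to 15.3 CPM in control against 1.04 to 2.29 CPM in EV-treated libraries, while most of the EV-treated sum came from Slc1a2 and Gja1. The 7 markers of the oligodendrocyte lineage summed to 212 to 440 CPM and 29.99 to 43.4 CPM, mostly from Cspg4, with Olig1, Olig2 and Mog at or near 0. Pdgfra (joined with Mir7025) went the other way, from 0.244 to 0.296 CPM in control to 2.74 to 3.26 CPM in EV-treated libraries. Of the markers of neural stem and progenitor cells, Nes stood at 45.7 to 82.1 CPM and 1.88 to 3.19 CPM, with Sox2 and Dcx at 0 to 0.308 CPM in all libraries. Endothelial markers (4, mostly Kdr, with Cldn5 at or near 0) summed to 4.60 to 6.004 CPM and 24.6 to 34.99 CPM, and neutrophil markers (6, mostly S100a8, with Elane and S100a9 at 0) to 1.48 to 3.23 CPM and 24.8 to 34.0 CPM. T cell markers (3, nearly all from Cd4, with Cd3e and Cd3d at or near 0) summed to 5.22 to 9.65 CPM and 1.01 to 1.58 CPM. The summed markers of neurons (5), B cells (3) and fibroblasts and pericytes (5) overlapped between the groups, but several single markers did not. Col1a1 stood at 6.24 to 13.7 CPM in control and 2.70 to 4.47 CPM in EV-treated libraries. Pdgfrb went the other way, from 0.243 to 0.546 CPM in control to 2.18 to 4.4975 CPM in EV-treated libraries. Dcn and Lum were also higher, and Col1a2 overlapped. Rbfox3, Snap25 and Cd79a, at 0.26 CPM or less, were lower in every EV-treated library. The part of these cells in the results on the BCL2 family was not tested, and in bulk samples fewer cells of a type and less RNA per cell cannot be told apart.

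The shared BH3 region is shown first, since it defines what these genes have in common. Each line gives 42 coding bases in the sense direction, 5′ to 3′, from the principal transcript in GENCODE vM21 (GRCm38). The capitals mark 6 codons: leucine, any 2 residues, alanine, valine, isoleucine, methionine or cysteine, glycine or alanine, and aspartate. This pattern, written to cover known BH3 regions, had 1 match in the coding sequence of each of the 9 genes.
Mcl1: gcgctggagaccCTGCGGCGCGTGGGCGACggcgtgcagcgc
Bcl2l1: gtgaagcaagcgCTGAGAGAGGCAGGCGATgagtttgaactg
Bcl2: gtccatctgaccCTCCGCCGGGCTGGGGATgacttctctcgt
Bax: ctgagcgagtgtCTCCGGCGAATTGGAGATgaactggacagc
Bak1: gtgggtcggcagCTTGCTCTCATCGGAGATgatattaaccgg
Bcl2l11: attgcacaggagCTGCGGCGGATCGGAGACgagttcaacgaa
Bid: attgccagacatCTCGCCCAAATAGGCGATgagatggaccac
Bbc3: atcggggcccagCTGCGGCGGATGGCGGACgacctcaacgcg
Bmf: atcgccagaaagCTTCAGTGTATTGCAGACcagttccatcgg
Each of these stretches lies within 1 exon: Mcl1 at chr3:95659424-95659465 (+), Bcl2l1 at chr2:152829694-152829735 (-), Bcl2 at chr1:106712572-106712613 (-), Bax at chr7:45465994-45466035 (-), Bak1 at chr17:27022528-27022569 (-), Bcl2l11 at chr2:128147138-128147179 (+), Bid at chr6:120897286-120897327 (-), Bbc3 at chr7:16313761-16313802 (+) and Bmf at chr2:118545097-118545138 (-). No sequence is given for Pmaip1.

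The plainest change among the members was in the survival genes, which moved in different directions. Mcl1 rose 3.20-fold in EV-treated microglia, Bcl2 fell 8.69-fold, and Bcl2l1 fell 1.45-fold. Among the death genes, Bmf fell 10.2-fold, Bcl2l11 and Bid fell, Pmaip1 and the Bax entry rose, and Bak1 and Bbc3 did not pass the test. That made 3 members higher and 5 lower, beside 33.0% and 33.5% of all entries, and the libraries of the groups did not overlap for 8 of 10, beside 71.3%. With totals alone 1 member was higher and 7 were lower, and with the sex-linked covariate 2 and 3. The main count is close to the background of a table in which 66.5% of entries were called. The median log2 change of the 10 was -0.38, beside -0.02 over all entries. By the size of their change, Bmf exceeded 91.9% of all entries, Bcl2 90.7% and Mcl1 75.6%, while Bak1 exceeded 4.07%.

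**Figure D1:**
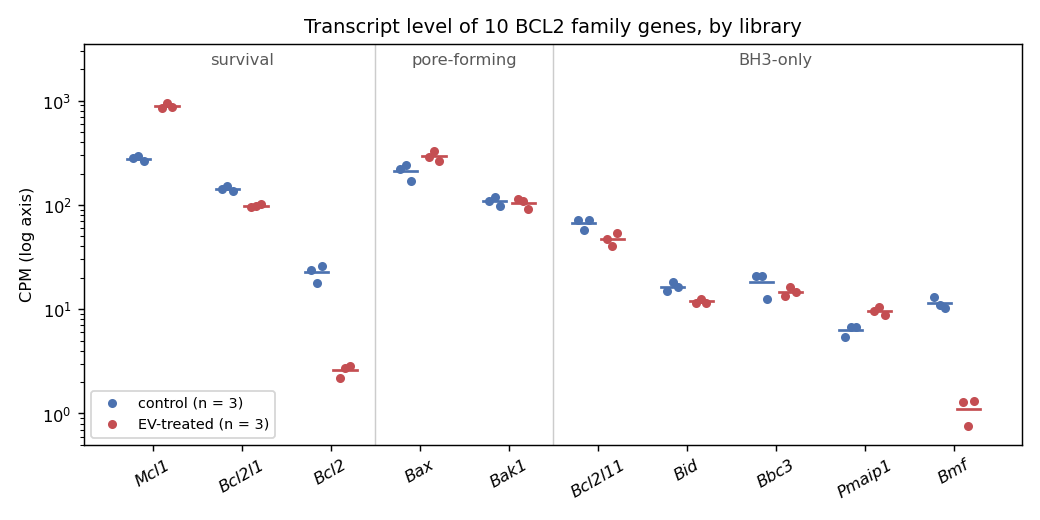
Level of each of the 10 genes in CPM (log axis) in the 3 control and 3 EV-treated libraries; points are libraries and short lines are group means, and Bax is its joined entry. Mcl1 lies at 846 to 959 CPM in EV-treated libraries against 262 to 293 CPM in control, while Bcl2 and Bmf lie under 3 CPM in every EV-treated library.

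Mcl1 (ENSMUSG00000038612, chr3:95658788-95663176, + strand) encodes a survival protein that binds BAK1 and most BH3-only proteins. Its levels were 280, 293 and 262 CPM in control A, B and C and 846, 959 and 863 CPM in EV-treated A, B and C. Every EV-treated library was above every control library. The means were 278 ± 15.2 and 889 ± 60.5 CPM (SD, n = 3), a log2 fold change of 1.68 with an SE of 0.115 (edgeR adjusted p = 1.13e-06).

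Bcl2 (ENSMUSG00000057329, chr1:106538178-106714274, - strand) is the survival gene that gave the family its name. It stood at 23.5, 17.9 and 26.2 CPM in control A, B and C. In EV-treated A, B and C it stood at 2.20, 2.72 and 2.87 CPM, from 272, 310 and 367 counts. The groups lay far apart, with means of 22.5 ± 4.19 and 2.60 ± 0.353 CPM (SD, n = 3) and a log2 fold change of -3.12 with an SE of 0.179 (edgeR adjusted p = 3.46e-07).

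Bcl2l1 (ENSMUSG00000007659, chr2:152780668-152831728, - strand) encodes BCL-XL. Control libraries A, B and C held 141, 151 and 135 CPM, and EV-treated A, B and C held 95.2, 98.6 and 101 CPM. The EV-treated libraries were all lower, and closer to each other than the control libraries. From 142 ± 8.29 to 98.3 ± 3.01 CPM (SD, n = 3), the log2 fold change was -0.53 with an SE of 0.0975 (edgeR adjusted p = 0.000861). With the sex-linked ratio as a covariate the fall was -0.44 and not called (adjusted p = 0.0899).

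Levels between genes were compared per length, as CPM per kilobase of exon bins. Among survival genes in control, Mcl1 made up 70.8% ± 0.373, Bcl2l1 27.0% ± 0.342 and Bcl2 2.16% ± 0.501 (SD, n = 3) of their summed level per kilobase. In EV-treated libraries the shares were 92.3% ± 0.469, 7.62% ± 0.463 and 0.101% ± 0.0124. No share overlapped between the groups. The summed level of the 3 genes was 115 ± 5.76 CPM per kilobase in control and 282 ± 17.9 in EV-treated libraries. With the single bin of most counts in place of the whole gene, the Mcl1 share was 52.96% in control and 82.6% in EV-treated libraries. A read that spans several bins may be counted in each, which raises the level per length of genes with many short bins, so levels of different genes are approximate.

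Bax (ENSMUSG00000003873, chr7:45461697-45466898, - strand) encodes a pore-forming protein that moves from the cytosol to mitochondria. Its joined entry (chr7:45461697-45488805) held 219, 242 and 170 CPM in control A, B and C and 290, 329 and 261 CPM in EV-treated A, B and C. The EV-treated libraries were higher, although control B and EV-treated C were close. The means were 211 ± 36.8 and 293 ± 33.8 CPM (SD, n = 3), and the log2 fold change was 0.48 with an SE of 0.150 (edgeR adjusted p = 0.0179). The 18 bins inside Bax gave 87.5% to 95.3% of the entry's counts. On these bins alone, a choice made after seeing the data, the levels were 197, 222 and 149 CPM in the control and 276, 313 and 245 CPM in EV-treated libraries. The log2 fold change there was 0.55 with an SE of 0.1603 (edgeR adjusted p = 0.0119). The 12 other bins of the entry went from 21.5 ± 1.30 to 15.5 ± 1.29 CPM (SD, n = 3). The rise of the joined entry was not called with upper-quartile scaling (0.36, adjusted p = 0.0540) or with totals alone (0.11, adjusted p = 0.513). Nor was it called without control C (0.33, adjusted p = 0.0629), without EV-treated A (0.46, adjusted p = 0.0623) or without EV-treated B (0.39, adjusted p = 0.0629). It was 1.02 when the sex-linked ratio was a covariate (adjusted p = 0.00688) and 0.73 on the bin of most counts (adjusted p = 0.00146).

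Bak1 (ENSMUSG00000057789, chr17:27019810-27029009, - strand) encodes the other pore-forming protein, which sits in the mitochondrial membrane. It held 110, 119 and 98.0 CPM in control A, B and C and 114, 110 and 90.8 CPM in EV-treated A, B and C. The groups overlapped, with a log2 fold change of -0.06, an SE of 0.124 and an edgeR adjusted p of 0.7002. With totals alone it was called lower, at -0.43 (adjusted p = 0.00806), close to the median shift of that scaling. Per kilobase, the share of Bax in the summed level of Bax and Bak1 was 72.3% ± 2.16 in control and 80.1% ± 1.35 in EV-treated libraries (SD, n = 3), with no overlap.

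**Figure D2:**
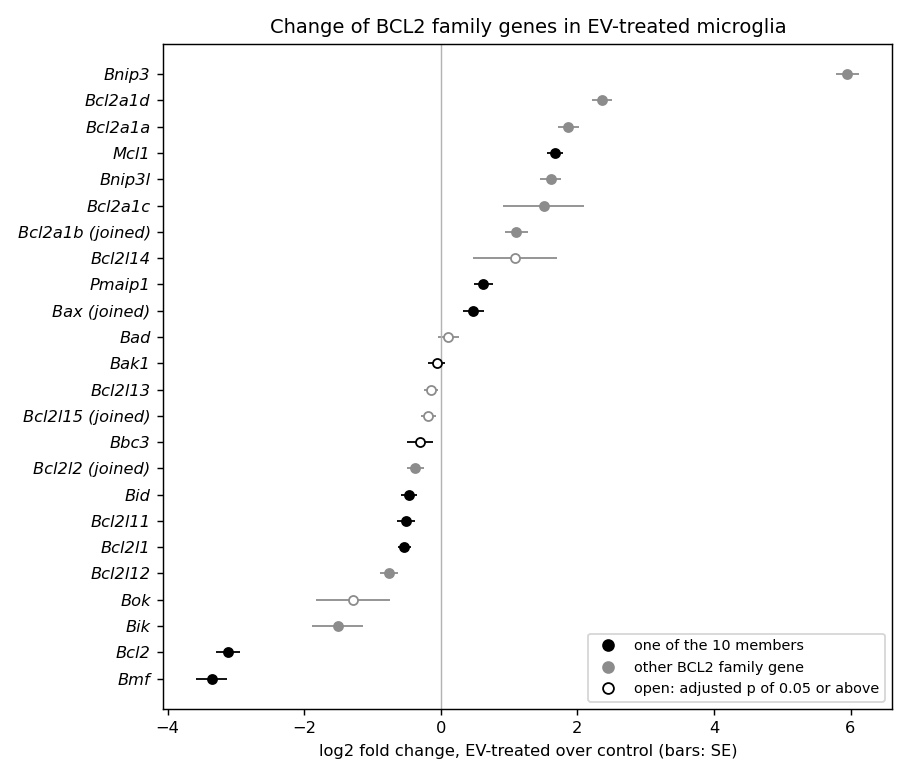
Log2 fold change of EV-treated over control (x axis, points with SE bars) for the 10 members (black) and the 14 other tested BCL2 family genes (grey); open points did not pass the test. Bnip3 lies at 5.95 at the top, and Bcl2 and Bmf lie at -3.12 and -3.36 at the bottom.

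Among the BH3-only genes, Bmf (ENSMUSG00000040093, chr2:118528757-118549687, - strand) changed most. Its protein is held at the cytoskeleton by a dynein light chain until it is released. It stood at 13.0, 10.9 and 10.3 CPM in control A, B and C and at 1.28, 0.756 and 1.30 CPM in EV-treated A, B and C, the latter from 158, 86 and 167 counts. All EV-treated libraries were far below control, at 1.11 ± 0.308 against 11.4 ± 1.39 CPM (SD, n = 3), and the log2 fold change was -3.36 with an SE of 0.222 (edgeR adjusted p = 8.78e-07).

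Bcl2l11 (ENSMUSG00000027381, chr2:128126038-128162547, + strand) encodes BIM, which binds all survival proteins of the family. Control A, B and C held 71.6, 57.7 and 71.5 CPM, and EV-treated A, B and C held 47.2, 40.8 and 53.5 CPM. The lowest control library, B, was close to the highest EV-treated library, C. The means were 66.9 ± 8.01 and 47.2 ± 6.36 CPM (SD, n = 3), a log2 fold change of -0.51 with an SE of 0.132 (edgeR adjusted p = 0.00714).

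Bid (ENSMUSG00000004446, chr6:120891930-120916853, - strand) encodes a protein that caspase-8 cleaves, which links death receptors to mitochondria. It stood at 14.8, 18.2 and 16.4 CPM in control A, B and C and at 11.5, 12.7 and 11.6 CPM in EV-treated A, B and C. The EV-treated libraries were all lower, at 11.9 ± 0.664 against 16.5 ± 1.69 CPM (SD, n = 3), with a log2 fold change of -0.47 and an SE of 0.119 (edgeR adjusted p = 0.00585). When the sex-linked ratio was added as a covariate, the value was -0.47 and not called (adjusted p = 0.1301).

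Bbc3 (ENSMUSG00000002083, chr7:16308393-16318205, + strand) encodes PUMA, a p53 target that binds all survival proteins. It stood at 20.9, 20.7 and 12.6 CPM in control A, B and C and at 13.3, 16.3 and 14.5 CPM in EV-treated A, B and C. Control C lay below every EV-treated library while control A and B lay above them. The log2 fold change was -0.30 with an SE of 0.189 (edgeR adjusted p = 0.190). Without control C it was -0.52 and called lower (adjusted p = 0.00601), with totals alone -0.66 (adjusted p = 0.00865) and without a filter -0.38 (adjusted p = 0.0284). When the sex-linked ratio was added as a covariate, it was 0.53 and not called (adjusted p = 0.109).

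Pmaip1 (ENSMUSG00000024521) encodes NOXA, which binds MCL1 and promotes its degradation. Its levels were 5.41, 6.70 and 6.72 CPM in control A, B and C and 9.62, 10.6 and 8.81 CPM in EV-treated A, B and C. Every EV-treated library was above control, with means of 6.28 ± 0.750 and 9.66 ± 0.875 CPM (SD, n = 3), a log2 fold change of 0.62 and an SE of 0.141 (edgeR adjusted p = 0.00317). The rise was not called with totals alone (0.25, adjusted p = 0.165) or with the sex-linked covariate (0.48, adjusted p = 0.187).

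Per kilobase, the 5 BH3-only genes summed to 26.0 ± 1.83 CPM in the control and 20.0 ± 0.669 in EV-treated libraries (SD, n = 3), without overlap. The Bmf share of that sum went from 8.34% ± 0.610 to 1.06% ± 0.311, and the Pmaip1 share from 9.18% ± 1.595 to 18.3% ± 1.67. The shares of Bcl2l11, Bid and Bbc3 overlapped between the groups.

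**Figure D3:**
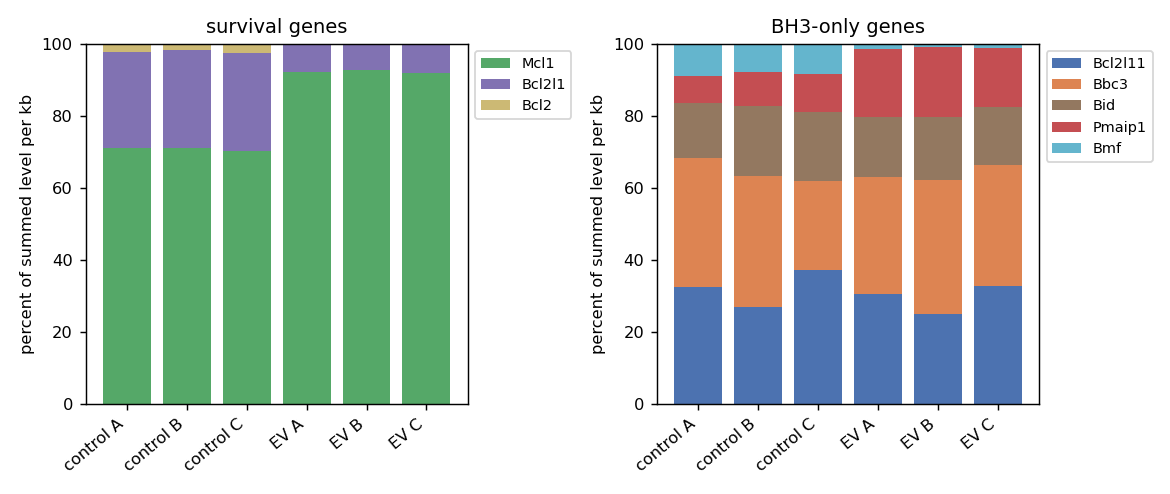
Stacked bars give each gene's percent of the summed level per kilobase of the 3 survival genes (left) and the 5 BH3-only genes (right) in each library. Mcl1 makes up 70.4% to 71.1% of the survival genes in control and 91.9% to 92.8% in the EV-treated ones, and the Pmaip1 share is higher and the Bmf share lower in every EV-treated library.

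In order of level per kilobase, the control libraries had Bax (its own bins, 120 CPM per kilobase) above Mcl1 (81.4), Bak1 (45.4), Bcl2l1 (31.0), Bbc3 (8.50), Bcl2l11 (8.34), Bid (4.64), Bcl2 (2.46), Pmaip1 (2.37) and Bmf (2.17). The neighbours Bbc3 and Bcl2l11, Bcl2 and Pmaip1, and Pmaip1 and Bmf overlapped in their ranges over libraries. In EV-treated libraries Mcl1 (260) came above Bax (176), followed by Bak1 (43.6), Bcl2l1 (21.4), Bbc3 (6.91), Bcl2l11 (5.87), Pmaip1 (3.65), Bid (3.35), Bcl2 (0.283) and Bmf (0.212). There Bbc3 and Bcl2l11, Pmaip1 and Bid, and Bcl2 and Bmf overlapped. With the bin of most counts, Bax came first in both groups and Bcl2l1 came above Bak1, so these places depend on how length is taken.

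Ratios of 2 members within a library do not depend on scaling between libraries. For each of 4 pairs an exact permutation test was run, 2-sided, which with 3 against 3 libraries cannot go below p = 0.1. Bax counts (joined entry) were 9.32, 13.5 and 6.51 times those of Bcl2 in control A, B and C and 132, 121 and 91.2 times in EV-treated A, B and C. This is a log2 difference of 3.60 (exact permutation p = 0.1, adjusted p = 0.133 over the 4 pairs), or 3.68 with the Bax bins alone.

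Bak1 counts were 0.394, 0.408 and 0.374 times those of Mcl1, the survival gene whose protein binds BAK1, in control A, B and C. In EV-treated A, B and C they were 0.135, 0.115 and 0.105 times (log2 difference -1.74, exact permutation p = 0.1, adjusted p = 0.133). Pmaip1 counts were 0.0193, 0.0229 and 0.0256 times those of Mcl1 in control A, B and C. In EV-treated libraries this ratio was 0.0114, 0.0110 and 0.0102 (log2 difference -1.05, exact permutation p = 0.1, adjusted p = 0.133), so both genes rose while their ratio was lower in every EV-treated library.

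Bcl2l11 counts were 0.508, 0.381 and 0.530 times those of Bcl2l1 in control A, B and C and 0.496, 0.414 and 0.529 times in EV-treated A, B and C. Both genes fell, and their ratio overlapped between the groups (log2 difference 0.03, exact permutation p = 0.9, adjusted p = 0.9). The difference went from -0.12 to 0.13 when single libraries were left out.

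The table counts reads per exon bin, so each member could be read below the level of the gene. Each bin was tested against the rest of its gene entry with edgeR's diffSpliceDGE, adjusted over all 198361 bins tested. Of the 136 bins of the members, 112 were tested and 12 were called, 8 higher and 4 lower relative to their gene. This is 10.7%, beside 4.19% of all bins. Called bins were 6 in Bcl2l11, 3 in Bcl2l1 and 1 each in Bax, Bid and Bbc3. None was called in Bcl2 (4 tested), Mcl1 (7), Bak1 (13), Pmaip1 (3) or Bmf (12).

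In Bcl2l11 the bins that gained share lie mostly in short or noncoding transcripts from the 5′ end of the gene. The first exon of Bcl2l11-206, a noncoding transcript (chr2:128127575-128127812), held 17, 17 and 27 counts in control A, B and C. It held 52, 60 and 98 counts in EV-treated A, B and C. Its usage was 1.78 higher on the log2 scale (diffSpliceDGE adjusted p = 3.46e-08), although the gene as a whole fell.

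The bins chr2:128129015-128129636 (in the noncoding Bcl2l11-208) and chr2:128130016-128130145 (in Bcl2l11-202 and Bcl2l11-206) had usage differences of 1.55 and 1.55 (diffSpliceDGE adjusted p = 0.00109 and 0.00145), from 2 to 35 counts per library. The end of the short coding transcript Bcl2l11-202 (chr2:128130146-128131495) held 39, 29 and 60 counts in control and 70, 63 and 77 counts in EV-treated libraries (usage 1.06, diffSpliceDGE adjusted p = 0.000328). These bins together hold a small part of the gene's counts. The first of them lost its call without control A and without EV-treated A.

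At the other end of the gene, the distal part of the last exon (chr2:128161229-128162547, in the 3′ UTR of Bcl2l11-205) lost share. It gave 18.9%, 20.1% and 20.1% of the gene's counts in control A, B and C and 12.5%, 11.1% and 12.4% in EV-treated A, B and C (usage -0.49, diffSpliceDGE adjusted p = 0.00455). All EV-treated libraries were lower, and the call was lost without EV-treated A. Within the 3′ UTR, the counts of this bin were 0.783 ± 0.0469 times those of the bin at its start (chr2:128158443-128160125) in control and 0.495 ± 0.0593 times in EV-treated libraries (SD, n = 3, exact permutation p = 0.1, the smallest possible).

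A 19-base coding bin of the first coding exon (chr2:128128738-128128756) was also called, at 0.44 (diffSpliceDGE adjusted p = 0.0323), and lost its call in 6 of 9 alternatives. Next to it lies the part of Bcl2l11 that separates BIM-EL, the longest protein form, from the shorter forms BIM-L and BIM-S. This 168-base part (chr2:128128757-128128924, + strand) is coding in 1 annotated transcript, Bcl2l11-205, with 588 coding bases. Bcl2l11-203 lacks it and has 420, and Bcl2l11-201 and Bcl2l11-204 have 330. In BIM-EL it carries sites that ERK phosphorylates. It is shown because the ratio below turns on it, in the sense direction from GENCODE vM21 with no part singled out.
Bcl2l11 EL part: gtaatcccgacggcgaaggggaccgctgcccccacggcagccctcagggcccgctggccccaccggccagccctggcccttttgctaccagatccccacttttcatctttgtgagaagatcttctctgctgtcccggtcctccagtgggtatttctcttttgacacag
The comparison was chosen after the values were seen. Counts of this part were 0.764, 0.887 and 0.883 times those of the 90-base coding bin that follows (chr2:128128925-128129014) in control A, B and C. They were 0.585, 0.5 and 0.548 times in EV-treated A, B and C. Every EV-treated library was lower, at 0.544 ± 0.0428 against 0.845 ± 0.0698 (SD, n = 3, exact permutation p = 0.1, the smallest possible).

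Against the 118-base bin upstream of it (chr2:128128620-128128737), the ratio was 0.836 ± 0.114 in control and 0.544 ± 0.0834 in EV-treated libraries (SD, n = 3). The bins on either side had ratios to each other of 1.02 ± 0.0624 and 1.01 ± 0.155 (SD, n = 3), which overlapped. The part's own usage against the whole gene did not pass the test (-0.11, diffSpliceDGE adjusted p = 0.978). The 90-base bin also belongs to Bcl2l11-202, Bcl2l11-206 and Bcl2l11-208, and the 118-base bin to every annotated transcript of the gene. Bins of those 3 transcripts gained share above, and the 168-base part is also in the noncoding Bcl2l11-208. So the ratios do not measure BIM-EL against BIM-L or BIM-S alone, and what each transcript adds to them was not tested.

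**Figure D4:**
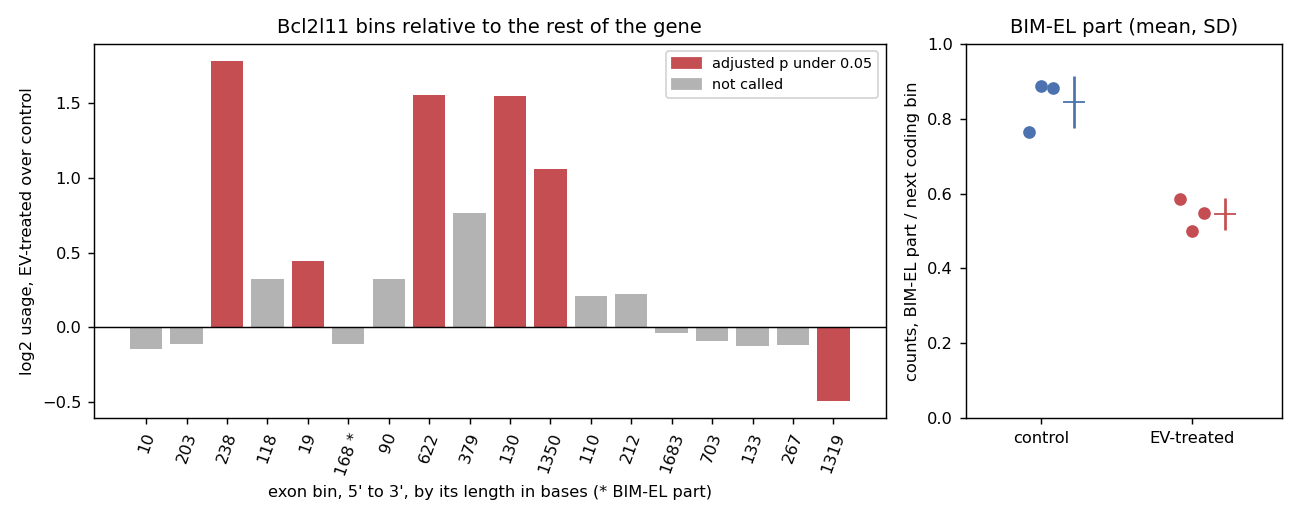
Left, log2 usage of each tested Bcl2l11 bin relative to the rest of the gene, EV-treated over control, from 5′ to 3′ (bins labelled by length in bases, called bins in red, the BIM-EL part with a star). Right, counts of the BIM-EL part over those of the next coding bin in each library, with mean and SD; control libraries lie at 0.764 to 0.887 and EV-treated libraries at 0.5 to 0.585.

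In Bcl2l1 the 3 called bins lie in alternative 5′ UTR exons. The first exon of Bcl2l1-206 (chr2:152830187-152830310) held 43, 38 and 97 counts in control A, B and C and 8, 4 and 9 counts in EV-treated A, B and C. Its usage was 1.52 lower on the log2 scale (usage -1.52, diffSpliceDGE adjusted p = 2.09e-05). The bins chr2:152830619-152830641 and chr2:152830541-152830618 gained share. Both lie in the 5′ UTR exon that Bcl2l1-202, Bcl2l1-203, Bcl2l1-204 and Bcl2l1-205 share, and the second also in Bcl2l1-207. Their usage differences were 0.74 and 0.46 (diffSpliceDGE adjusted p = 0.00520 and 0.0330), and the second lost its call in 6 of 9 alternatives.

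The last exon of Bid-204, a transcript annotated as a target of nonsense-mediated decay (chr6:120891930-120892557), gave 9.57%, 6.70% and 9.07% of Bid counts in control A, B and C. It gave 3.88%, 3.47% and 2.97% in EV-treated A, B and C. The groups did not overlap (usage -0.88, diffSpliceDGE adjusted p = 9.35e-06). In Bbc3, the start of the retained-intron transcript Bbc3-203 (chr7:16313517-16313626) held 11, 12 and 7 counts in control and 30, 38 and 56 counts in EV-treated libraries. Its usage difference was 1.78 (diffSpliceDGE adjusted p = 0.00505), not called without EV-treated C. In Bax, the bin chr7:45466307-45466741 lies in Bax-203 alone. Of the counts of the bins inside Bax, it gave 3.26% ± 0.193 in control and 2.03% ± 0.218 in EV-treated libraries (SD, n = 3). Its usage was -0.42 (diffSpliceDGE adjusted p = 0.0239), and it was not called without control A, EV-treated A or EV-treated B. In 138 bases of Mcl1 that the shorter transcript Mcl1-202 lacks, counts relative to the next bin overlapped between the groups (0.199 ± 0.0330 and 0.224 ± 0.0695, SD, n = 3, exact permutation p = 0.6). The 3′ UTR bin of Mcl1 (chr3:95660824-95663176) gave 50.2% ± 1.70 of its counts in control and 41.7% ± 1.75 in EV-treated libraries (SD, n = 3). The bins chr3:95659047-95659487 (14.9% and 18.4%), chr3:95659761-95660008 (16.5% and 19.3%) and chr3:95660707-95660823 (10.3% and 12.1%) gained share. These shares did not overlap between the groups, but no bin was called, and they were named after their values were seen.

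Of 16 other BCL2 family genes, 14 were tested: 6 rose, 3 fell and 5 did not pass the test. Over all entries, 33.0% rose and 33.5% fell. The median log2 change of the 14 was 0.60, beside -0.02 over all entries. Bcl2l10 had no counts in any library, which allows up to 0.0264 CPM in EV-treated B, the library with the smallest total after TMM scaling. Hrk had 0 to 6 counts per library. With totals alone 5 rose and 6 fell, with upper-quartile scaling 5 and 6, and with the sex-linked covariate 5 and 1. Bnip3, a mitophagy receptor of the family, went from 13.6, 13.4 and 10.5 CPM in control A, B and C to 768, 865 and 688 CPM in EV-treated A, B and C. Its log2 fold change was 5.95 with an SE of 0.174 (edgeR adjusted p = 6.48e-09), far above that of any of the 10 members. Bnip3l, its close relative, rose by 1.61 on the log2 scale, from 153 ± 27.6 to 466 ± 42.5 CPM (SD, n = 3, edgeR adjusted p = 1.01e-05).

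The A1 survival genes are near-identical copies that reads cannot always tell apart, so their values are uncertain. Bcl2a1d rose by 2.36 on the log2 scale, from 18.9 ± 1.57 to 97.3 ± 19.2 CPM (SD, n = 3, edgeR adjusted p = 7.47e-07). Bcl2a1a rose by 1.87 (edgeR adjusted p = 4.01e-06), and the entry that joins Bcl2a1b with Mthfs and Gm29094 by 1.10 (edgeR adjusted p = 0.000261). Bcl2a1c stood at 0.0228 to 0.0955 CPM in the control and 0.121 to 0.264 CPM in EV-treated libraries (log2 fold change 1.51, edgeR adjusted p = 0.0460), near the level of 3 counts, and lost its call in 10 of 16 alternatives.

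The other called genes fell. Bik, a BH3-only gene, fell by 1.51 on the log2 scale, from 1.33 ± 0.320 to 0.468 ± 0.245 CPM (SD, n = 3, edgeR adjusted p = 0.00529), and was not called with the sex-linked covariate or with the bin of most counts. Bcl2l12 fell by 0.76 (edgeR adjusted p = 0.000623), with no call on its bin of most counts. The entry that joins Bcl2l2, the survival gene for BCL-W, with Pabpn1 and Gm20521 fell by 0.37 (edgeR adjusted p = 0.0201), and had 0.23 on its bin of most counts, a bin that need not belong to Bcl2l2. This entry was not called with the sex-linked covariate (-0.60, adjusted p = 0.0550), without EV-treated A (-0.31, adjusted p = 0.0833) or without EV-treated B (-0.34, adjusted p = 0.0511). The genes that did not pass were Bok (-1.29), Bad (0.11, below 0 in 4 alternatives), Bcl2l13 (-0.14), Bcl2l14 (1.09, at 0.0236 to 0.141 CPM) and the joined entry of Bcl2l15 with Ap4b1 and Gm43064 (-0.18). Bok stood at 0.318 to 0.402 CPM in control and at 0.0969, 0.290 and 0.0625 CPM in EV-treated A, B and C. It was called lower in 6 alternatives, among them limma-voom (-1.55, adjusted p = 0.0194).

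Genes that act on the members' proteins moved in both directions. Of 11 tested genes that turn over MCL1 or tether BH3-only proteins, 4 rose, 3 fell and 4 did not pass. These counts are near the shares of all entries, 33.0% and 33.5%, and the median log2 change was 0.06. With totals alone, none rose and 4 fell, and with the sex-linked covariate none rose and 1 fell. Dynll2, the dynein light chain known to hold BMF, fell by 0.88 on the log2 scale (89.9 ± 4.32 to 49.0 ± 2.32 CPM, SD, n = 3, edgeR adjusted p = 2.84e-05). Fbxw7, a ubiquitin ligase subunit that targets MCL1, fell by 0.57 (edgeR adjusted p = 0.00152) and was not called with the sex-linked covariate. Btrc, another such subunit, rose by 0.64 (edgeR adjusted p = 0.000586), but was -0.29 and not called on its bin of most counts. Ywhaz, a 14-3-3 protein that holds phosphorylated BAD, rose by 0.48 (edgeR adjusted p = 0.00232). Btrc and Ywhaz were not called with totals alone or with the sex-linked covariate.

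Of 13 genes for outer membrane channels or for steps downstream of the mitochondrial pore, 8 rose, 3 fell and 2 did not pass. Of all entries, 33.0% rose and 33.5% fell. The median of the 13 was 0.42, and with totals alone 5 rose and 3 fell. With the sex-linked covariate the counts were 5 and 2. Vdac1, a channel of the outer mitochondrial membrane, rose by 2.34 on the log2 scale (161 ± 5.15 to 814 ± 44.0 CPM, SD, n = 3, edgeR adjusted p = 1.07e-07). Apaf1, the scaffold on which cytochrome c activates caspase-9, rose by 1.67 (48.6 ± 1.45 to 154 ± 19.7 CPM, edgeR adjusted p = 1.29e-06). Casp9 itself fell by 0.97 (edgeR adjusted p = 3.61e-05), and Htra2, a protease of the mitochondrial intermembrane space, fell by 1.45 (edgeR adjusted p = 5.77e-06).

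Bax, Bbc3 and Pmaip1 are known p53 targets. Of 15 tested genes of p53 and its other targets, 2 rose, 11 fell and 2 did not pass. The shares over all entries were 33.0% and 33.5%, and the median log2 change of the 15 was -1.22. The list had the same counts with totals alone and with upper-quartile scaling, and 3 and 9 with the sex-linked covariate. Phlda3, a target that inhibits AKT, fell by 3.10 on the log2 scale (27.6 ± 6.09 to 3.21 ± 0.397 CPM, SD, n = 3, edgeR adjusted p = 4.48e-07), and Sesn1, a stress-induced sestrin, by 2.55 (edgeR adjusted p = 1.47e-07). Cdkn1a, the cell cycle inhibitor p21, rose by 2.26 (164 ± 29.1 to 783 ± 39.3 CPM, SD, n = 3, edgeR adjusted p = 9.41e-07), and Mdm2, the ubiquitin ligase of p53, by 1.62 (edgeR adjusted p = 5.05e-06).

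Of 11 tested transcription factors and stress genes tied to BH3-only genes, 6 rose, 4 fell and 1 did not pass. Beside these stand 33.0% and 33.5% of all entries, and the median of the 11 was 0.98. With totals alone the counts were 6 and 4, and when the sex-linked ratio was a covariate 7 and 2. Hif1a, the hypoxia factor that can activate Bnip3, rose by 2.16 on the log2 scale (77.2 ± 10.5 to 346 ± 13.6 CPM, SD, n = 3, edgeR adjusted p = 3.87e-07). Trib3, an ATF4 target, rose by 2.89 (edgeR adjusted p = 2.61e-06). Foxo4 fell by 1.02 (edgeR adjusted p = 0.000112) and Myc by 0.88 (edgeR adjusted p = 0.000212).

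All 10 tested NF-kB survival genes rose, beside 33.0% of all entries. The list was chosen with earlier results of these data known, so its count is not independent of them. Its median log2 change was 3.17 beside -0.02 over all entries, and 9 rose with totals alone and with the sex-linked covariate. Ier3, an early survival gene, went from 1.37, 1.95 and 1.54 CPM in control A, B and C to 625, 556 and 614 CPM in EV-treated A, B and C (log2 fold change 8.53, edgeR adjusted p = 2.25e-09). Birc3, an inhibitor of apoptosis protein, rose by 3.23 (23.1 ± 2.44 to 216 ± 6.84 CPM, SD, n = 3, edgeR adjusted p = 2.34e-08). The A1 genes above are also known NF-kB targets.

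Of 7 tested death receptor genes upstream of Bid, 3 rose, 1 fell and 3 did not pass, beside 33.0% and 33.5% of all entries. Their median was -0.02, and with totals alone 1 rose and 4 fell. With the sex-linked covariate 3 rose and 1 fell. Fas rose by 2.36 on the log2 scale (1.54 ± 0.223 to 7.88 ± 1.71 CPM, SD, n = 3, edgeR adjusted p = 4.59e-06). The entry joining Ripk1, a kinase of TNF receptor signalling, with Gm17084 rose by 0.59 (edgeR adjusted p = 0.000901), and was not called with totals alone. Tnfrsf1a, the main TNF receptor, fell by 0.77 (edgeR adjusted p = 0.000270). Casp8, whose protein cleaves BID, stood at 43.7 ± 3.03 CPM in the control and 43.1 ± 4.86 CPM in EV-treated libraries (SD, n = 3) and did not pass.

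**Figure D5:**
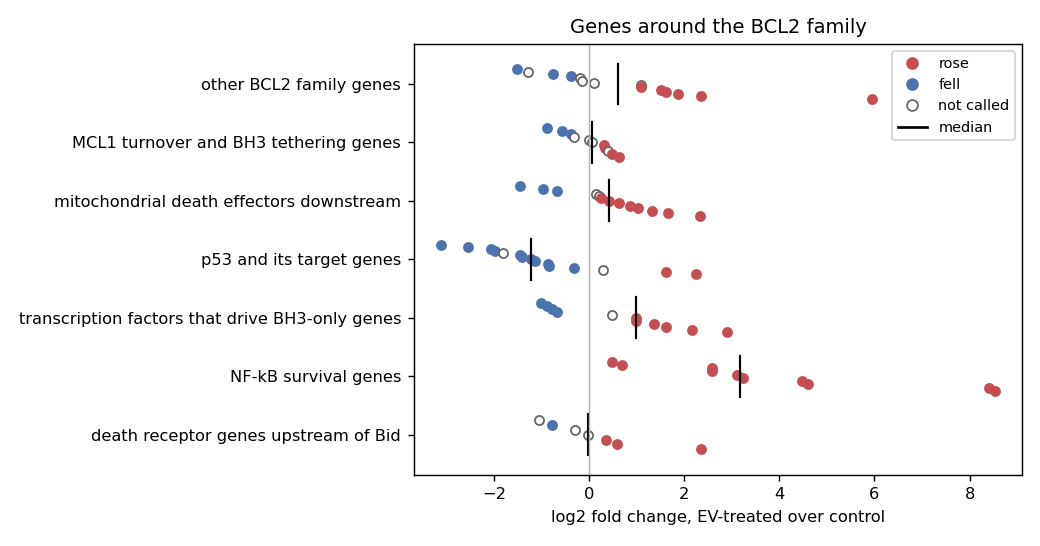
Log2 fold change of EV-treated over control (x axis) for the tested genes of 7 lists around the BCL2 family, 1 point per gene entry; red rose, blue fell, open points did not pass, and black lines are list medians. The NF-kB survival genes all lie above 0 with a median of 3.17, and 11 of 15 p53 genes fell. Over all entries 33.0% rose and 33.5% fell, and the lists were chosen with earlier results of these data known.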

How the data were processed

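Messenger RNA of cultured mouse microglia, 3 control and 3 EV-treated samples, was sequenced. Per the submitters' processing notes, the authors used Trimmomatic 0.36, STAR, Subread, DESeq2 and the build GRCm38. Settings, annotation release and strand use were not given in the sources used here, so overlapping and antisense genes cannot be told apart. The deposited values are raw counts per exon bin, per the file headers; 425461 bins were summed into 48005 gene entries. Gene symbols were found for 49298 of 49644 identifiers.

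Entries passing filterByExpr were scaled by TMM and tested with edgeR 4.0.16 (R 4.3.3, 2-sided, no covariate). Bin usage was tested with diffSpliceDGE. Each SE is the log2 change over the root of its F statistic. Exact tests used scipy 1.17.1. Sequences and exon annotation come from GENCODE vM21. A limit of 3 counts was used for a gene at 0, which covers counting error only. On simulated data with 200 genes drawn to change, less those filtered out, the gene test recovered 91.1% and 96.0% of log2 changes of -2 and 2, and 79.1% and 77.6% of -1 and 1, and called 16 of 15539 unchanged genes. In the bin test, 99.0% and 98.0% of changes of -2 and 2 were recovered. The changed bins were drawn from well-counted bins, at a fixed dispersion and equal depth. Recovery in bins of few counts or of smaller changes was therefore not simulated. Far fewer genes changed in the simulation than the 66.5% of entries called here.

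One marker gene is not reported here. The members, lists and the sex-linked covariate were chosen with earlier results of these data known. The named genes are all members, all tested other family genes and, of each further list, up to 2 rising and 2 falling genes with the smallest p among called entries whose groups did not overlap and whose mean log2 CPM was 1 or more; Casp8 and the BIM-EL ratios, with the other ratios of bins, were chosen after their values were seen. Alternatives were RLE, upper-quartile and total scaling, 2 other filters, DESeq2 1.42.0, limma-voom (limma 3.58.1), the replicate letter as a block, the sex-linked covariate, the bin of most counts, entries of single genes and each library left out.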

Additional observations from a re-analysis of the deposited data

How the results depend on the processing

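Over 45 named genes and their alternatives, 701 of 756 values kept their direction and side of the threshold, 31 lost a call, 15 gained one and 9 changed sign. Mcl1, Bcl2, Bcl2l11 and Bmf kept their calls in all alternatives run. The sex-linked covariate left 7271 entries called, 3599 higher and 3672 lower, with 2 members higher and 3 lower. Totals alone left 1 member higher, Mcl1, and 7 lower. The cause was not tested. The values that changed sign were Bak1 at 0.27 with the sex-linked covariate and 0.026 without EV-treated C (from -0.15 to 0.026 with single libraries left out), Bbc3 at 0.53 with the sex-linked covariate, Bad at -0.0095 with upper-quartile scaling, -0.26 with totals alone, -0.033 without control C and -0.017 without EV-treated B (up to 0.21 with single libraries left out), Btrc at -0.29 and the joined Bcl2l2 entry at 0.23 on the bin of most counts, and the ratio of Bcl2l11 to Bcl2l1, which ranged from -0.12 to 0.13 with single libraries left out. Its value without EV-treated A was -0.0016. The ratio of Pmaip1 to Mcl1 was -0.77 on the bin of most counts.

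The labels do not say that a replicate letter pairs a control with an EV-treated sample. Correlations of same-lettered deviations were low, at 0.04, 0.17 and 0.21 for A, B and C. Every library still correlated best with its own letter, so whether the letters pair the samples is not settled. With the replicate block 11609 entries were called, 5758 higher and 5851 lower, and member calls stayed at 3 higher and 5 lower, while 16 member bins were called in place of 12. Other settings called 8 to 12 member bins. Depth limits Bcl2a1c, Bcl2l14, Bok in EV-treated libraries and the Bcl2l11 bins of few counts, which rest on few counts per library.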
